A study of Homo sapiens with 21 samples.

Results

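PC-9 is a cell line from an EGFR-mutant non-small cell lung cancer, and the EGFR-low and EGFR-high cells are pools sorted from it in repeated rounds for low or high EGFR. The comparison described here sets 3 libraries of EGFR-low cells kept in DMSO, the solvent of the drug vorinostat, against 3 libraries of untreated EGFR-low cells, 6 of the 21 samples of the series. They were chosen by their labels alone. EGFR-high cells gave the same pair of groups, 3 in DMSO and 3 untreated, and served as the guide to what the 2 experiments differ in by handling. Every group carries the EGFR exon 19 deletion of PC-9, and no gene was introduced or removed. The genotype is written as EGFR delE746-A750 for a parental sample, and the last residue then goes up by 1 from sample to sample, to A758 in the untreated and A767 in the DMSO EGFR-low libraries, so only its start was read as a genotype. Untreated cells were harvested 24 h after seeding, and DMSO was started 24 h after seeding and kept for 72 h. DMSO, the longer culture, the experiment and the table of values therefore change together and cannot be told apart here. The sorted cells are pools and not clones. The labels do not say whether replicates came from separate cultures, although the study's methods define biological replicates as repeats at separate times, so a p-value here measures the spread between these libraries. The dose of DMSO is not given in the sources used here.

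Polyadenylated RNA was sequenced, and the values were read as FPKM, fragment counts corrected for transcript length and for the size of the library. The depth is unknown, so a value of 0 is described as listed at 0. A difference between DMSO and untreated is a difference of mean log2(FPKM + 1), called the EGFR-low or the EGFR-high difference. As the 2 groups of each difference stand in 2 tables, it is described and not tested. What was tested is the EGFR-low difference minus the EGFR-high difference, here the difference of differences, whose 2 parts can each be read within a table. A gene called higher or lower is one whose difference of differences was above or below 0 at an adjusted p under 0.05 (limma, Benjamini-Hochberg over 11883 genes). A gene was tested where 3 or more of the 6 EGFR-low libraries held it at 1 FPKM or above.

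By way of background, EGFR is a receptor tyrosine kinase that drives ERK signalling, and its activating mutations make lung adenocarcinomas depend on it. Interferon-stimulated genes are switched on by factors such as IRF9, which bind the interferon response element in their promoters. ATF4 is the transcription factor of the amino acid and stress response, and NRF2 that of the antioxidant response. Cancer-testis genes such as those of the MAGEA, XAGE1 and CT45A families lie on the X chromosome, are silent in most adult tissues and are expressed in some tumours and lines but not in others.

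Libraries differed in ways their labels do not give, and this bears on every result that follows. On the first principal component of the 12 libraries, which held 63.3% of the variance, the 8 libraries other than EGFR-high DMSO replicate 3 and the EGFR-low DMSO libraries lay between -47.4 and -17.9. EGFR-high DMSO replicate 3 lay at 19.5 and EGFR-low DMSO replicates 1 to 3 at 65.1, 98.1 and 99.2. Across all genes the Spearman correlation of EGFR-low DMSO replicate 1 with EGFR-low DMSO replicates 2 and 3 was at most 0.976, while it reached 0.979 with a library of EGFR-high DMSO cells. With the untreated EGFR-low libraries, the EGFR-low DMSO libraries correlated at 0.889 to 0.931 and the EGFR-high DMSO libraries at 0.942 to 0.968. The sorted EGFR-low cells in DMSO thus stood farther from the untreated EGFR-low cells than EGFR-high cells did in either experiment.

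Many genes were near 0 in one experiment and well above it in the other. With the values in view, 61 genes were picked that were under 1 FPKM in all 6 untreated libraries and at 10 FPKM or more in every EGFR-low DMSO library. UBE2M, a NEDD8-conjugating enzyme of most cells, was listed at 0 in the 6 untreated libraries and was at 74.3, 107 and 113 FPKM in EGFR-low DMSO cells. PRAME, a cancer-testis antigen, was listed at 0 in every untreated library and at 22.2, 39.5 and 32.4 FPKM in EGFR-low DMSO cells. A listed 0 need not mean that a gene was not expressed, since no read counts are given and 3 abundant mitochondrial mRNAs are also listed at 0 in a single library. BASP1, a membrane protein, was at most 0.736 FPKM untreated and at 85.1, 142 and 122 FPKM in EGFR-low DMSO cells. In the libraries that the choice did not use, the 61 genes stood at a median of 25.3% (quartiles 23.6 to 28.6%) of their EGFR-low DMSO level in EGFR-high DMSO replicate 3, and at 0.136% and 0.117% in replicates 1 and 2. In the 3 EGFR-low libraries treated with vorinostat the medians were 86.8, 98.3 and 103%.

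In the other direction, 62 genes were at 10 FPKM or more in all 6 untreated libraries and under 1 FPKM in EGFR-low DMSO replicates 2 and 3. STK24, a kinase, was at 130, 81.9 and 122 FPKM in untreated EGFR-low cells and at 25.2, 0.91 and 0.805 FPKM in DMSO. ECH1, an enzyme of fatty acid oxidation, was at 38.6, 44.7 and 42.1 FPKM against 12.8, 0.921 and 0.599 FPKM. MAGEA3, which shares reads with its near-identical family members, was at 118, 106 and 143 FPKM against 36.1, 0.675 and 0.426 FPKM. In EGFR-low DMSO replicate 1, which the choice did not use, the 62 genes stood at a median of 21.8% (quartiles 19 to 23.6%) of their level in EGFR-high DMSO replicates 1 and 2. EGFR-high DMSO replicate 3 held 71.1%, and the EGFR-low vorinostat libraries at most 0.48%. In EGFR-low DMSO replicate 1 the 61 genes held a median of 73.8% (quartiles 67.2 to 84.4%) of their level in replicates 2 and 3. Their choice required 10 FPKM or more in replicate 1, so lower values there were left out. By these medians EGFR-low DMSO replicate 1 and EGFR-high DMSO replicate 3 were between the other libraries for both sets. The shares of both libraries varied little from gene to gene. Whether these 2 libraries hold RNA of both populations was not tested. Whether the EGFR-low cells of the 2 experiments are the same cells was not tested either, and it cannot be told apart from DMSO or the experiment in any value or call below. The part of the 2 libraries in the differences that follow was not tested. The main counts of genes called, or separated within a population, are given with and without them, a choice made after the data were seen. Genes shared by both populations are counted only with them. Genes at 1 FPKM or more numbered 10857 to 11060 in the untreated and 11430 to 11694 in the DMSO EGFR-low libraries, and mitochondrially encoded genes held 6.58 to 11.8% and 7.8 to 16.7% of their summed FPKM. The 7.8% belongs to EGFR-low DMSO replicate 1, where MT-ATP6, MT-ATP8 and MT-CO3 are listed at 0.

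**Figure D1:**
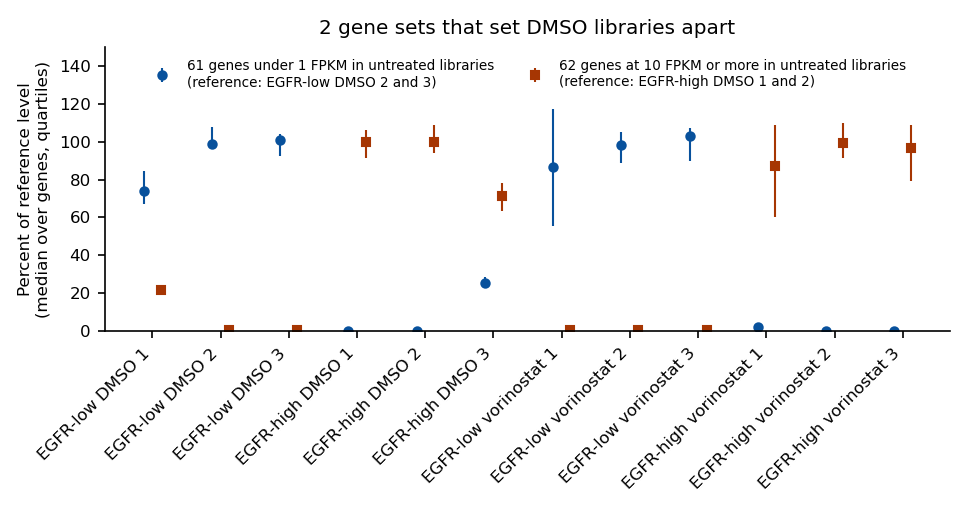
Level of the 61 and 62 genes in each DMSO and vorinostat library as a percent of their reference level (y axis; points, medians over genes; bars, quartiles). EGFR-low DMSO replicate 1 and EGFR-high DMSO replicate 3 lie between the other libraries for both sets, and the EGFR-low vorinostat libraries sit with EGFR-low DMSO replicates 2 and 3. The choice of the 61 genes used EGFR-low DMSO replicate 1.

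EGFR itself kept the order that the sort gave it. It was at 60.2, 26.5 and 60.6 FPKM in untreated EGFR-low cells and at 43.3, 17.7 and 19.3 FPKM in DMSO. In EGFR-high cells it was at 269, 161 and 243 FPKM untreated and at 83.3, 152 and 109 FPKM in DMSO. EGFR-low cells lay below EGFR-high cells with no overlap in each experiment (26.8 ± 14.3 against 115 ± 34.9 FPKM in DMSO, SD, n = 3), and the two-sided exact permutation p was 0.1 in both, the smallest that 3 against 3 allows. DMSO cells were lower than untreated cells in both populations, by 0.87 log2 units (-0.87) in EGFR-low and 0.97 (-0.97) in EGFR-high cells, and the EGFR-low groups overlapped. The difference of differences was 0.09 (SE 0.55, limma adjusted p = 0.92), and its sign changed with the scaling and with the library left out. The 6 epithelial markers (EPCAM, CDH1, KRT8, KRT18, KRT19 and KRT7) were expressed in every group and summed to 1801 to 3015 FPKM in untreated and 1605 to 1864 FPKM in DMSO EGFR-low libraries. Of 7 fibroblast markers 6 stayed under 1 FPKM in every library, and their sum was at most 5.88 FPKM in EGFR-low cells. Of 5 immune markers CD68 alone was over 1 FPKM in untreated EGFR-low cells, joined in DMSO by CD14 and MS4A1, and their sum was 17 to 37.8 FPKM untreated and 15.3 to 26.1 FPKM in DMSO.

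The EGFR-low difference was wider than the EGFR-high difference over all genes. Its SD over the 11883 genes was 1.19 log2 units, against 0.524 in EGFR-high cells, and the 2 differences correlated across genes at r = 0.521 (0.301 without EGFR-low DMSO replicate 1 and EGFR-high DMSO replicate 3, across genes, which are not independent replicates). In EGFR-low cells 2644 genes (22.3%) were over 1 log2 unit higher in DMSO without overlap of the groups, and 1175 (9.89%) were over 1 log2 unit lower. In EGFR-high cells these were 541 (4.55%) and 178 (1.5%) of the same genes. Without the 2 libraries the EGFR-low counts were 2820 and 1395, and the EGFR-high count of both directions was 720, from 719. Smaller groups overlap less easily. Of the 2644 genes 369 were also separated in the same direction in EGFR-high cells, which is 14% of the EGFR-low and 68.2% of the EGFR-high genes. Of the 1175 genes 116 were shared, 9.87% of the EGFR-low and 65.2% of the EGFR-high genes. Some of the 369 genes passed 1 log2 unit in EGFR-high cells mainly through DMSO replicate 3. XAGE1A, for example, was listed at 0 in untreated EGFR-high cells and was at 0.0291, 0.0973 and 38.6 FPKM in DMSO. The shared genes were not counted without that library. The median gene lay 0.25 log2 units higher in DMSO EGFR-low cells and 0.14 higher in EGFR-high cells. Median-of-ratios scaling brought the EGFR-low median to 0.01 and the EGFR-low counts to 2034 higher and 1670 lower, from 69.2% to 54.9% higher, and quantile normalization to 1915 and 1712, so differences near 0.25 should be read against that shift. The differences of EGFR-low cells correlated with transcript GC content at r = 0.231 across genes, and those of EGFR-high cells at r = 0.421.

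The difference of differences was called higher for 1746 genes (14.7%) and lower for 1081 (9.1%). Without the 2 libraries that stood between the groups it was called higher for 1881 and lower for 1086, of which 1604 and 956 were called the same way with all 12. Among the genes called higher, 1712 had EGFR-low DMSO libraries that all lay above the untreated ones, and 955 of those called lower had them all below. The EGFR-high cells moved over 1 log2 unit the other way without overlap for 11 of the genes called higher and 60 of those called lower. At the same cut, EGFR-low cells moved in the direction of the call for 1466 of the genes called higher and 747 of those called lower. Of all genes, 22.3% and 9.89% moved so in EGFR-low cells. The EGFR-low difference is part of what was tested, so these counts are not independent of the calls. Of the 11883 genes 1053 were under 1 FPKM throughout 1 of the 2 EGFR-low groups, and these had to differ to be tested. Fewer cells that express a gene and less of its RNA in each cell cannot be told apart in these bulk libraries.

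**Figure D2:**
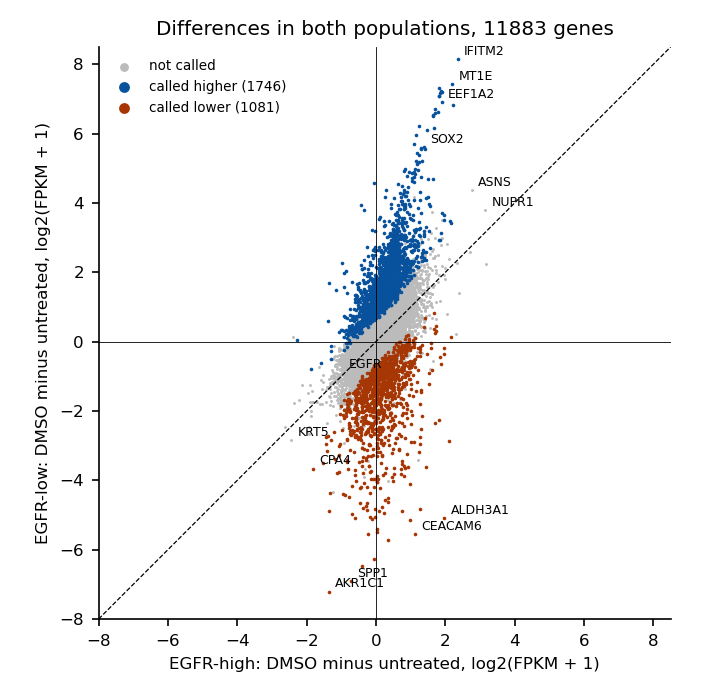
EGFR-low difference (y axis) against EGFR-high difference (x axis), both DMSO minus untreated in log2(FPKM + 1), for 11883 genes. Blue and brown points are the 1746 and 1081 genes called higher and lower, and ASNS and NUPR1 lie far from 0 on both axes.

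The 10 genes with the largest difference of differences upward came from few families. IFITM2, a membrane protein that blocks virus entry, did not exceed 0.157 FPKM in untreated EGFR-low cells and was at 228, 442 and 334 FPKM in DMSO. Its EGFR-high DMSO values were 0.53, 0.454 and 85.3 FPKM, so that replicate 3 stood alone there. The EGFR-low difference was 8.16, the EGFR-high difference 2.37 and the difference of differences 5.79 (SE 1.58, limma adjusted p = 0.019), or 7.99 (4.59e-09) without the 2 libraries. IFITM1 had a difference of differences of 5.51 and MT1E, a metallothionein listed at 0 in every untreated library and at 166, 193 and 155 FPKM in EGFR-low DMSO cells, one of 5.22. XAGE1A, XAGE1B, XAGE1C, XAGE1D and XAGE1E, copies that can share reads, had 5.27 to 5.36, and CT45A4, also of a family of copies, had 5.02. EEF1A2, an elongation factor of muscle and neurons, was at 0.974, 0.692 and 2.41 FPKM untreated and at 196, 309 and 320 FPKM in DMSO, with a difference of differences of 5.01. When each of the 12 libraries was left out in turn, IFITM2 lost its call without EGFR-high DMSO replicate 1 (adjusted p = 0.0521) or 2 (0.0518), and MT1E without either of these (0.0639 and 0.0644) or EGFR-low DMSO replicate 2 (0.0536).

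The 10 genes with the largest difference of differences downward held carbonyl- and aldehyde-reducing or oxidizing enzymes and secreted or surface proteins of epithelia. ALDH3A1, an aldehyde dehydrogenase, was at 278, 183 and 262 FPKM in untreated EGFR-low cells and at 26.2, 3.14 and 2.07 FPKM in DMSO. It was higher in DMSO in EGFR-high cells, at 20, 26.7 and 31.1 FPKM untreated and 91.3, 140 and 86.2 FPKM in DMSO, and the difference of differences was -7.06 (SE 0.85, limma adjusted p = 0.000444). CEACAM6, a surface adhesion protein, fell from 842, 765 and 777 FPKM to 125, 6.56 and 4.22 FPKM, with a difference of differences of -6.67. SPP1, which encodes osteopontin, went from 417, 653 and 305 FPKM to 13.3, 1.19 and 0.549 FPKM (-6.19). UCHL1, a ubiquitin hydrolase, went from 525, 721 and 571 FPKM to 124, 1.04 and 0.832 FPKM (-6.21), while EGFR-high cells held 419 to 645 FPKM in both experiments. The others were VCX3A and VCX3B, X-linked genes of the testis that share reads (-6.11 and -6.12), AKR1B10, AKR1C1 and AKR1C3 (-6.07, -5.84 and -6.07) and UGT1A6 (-5.65). In these genes EGFR-low DMSO replicate 1 lay above replicates 2 and 3 throughout.

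**Figure D3:**
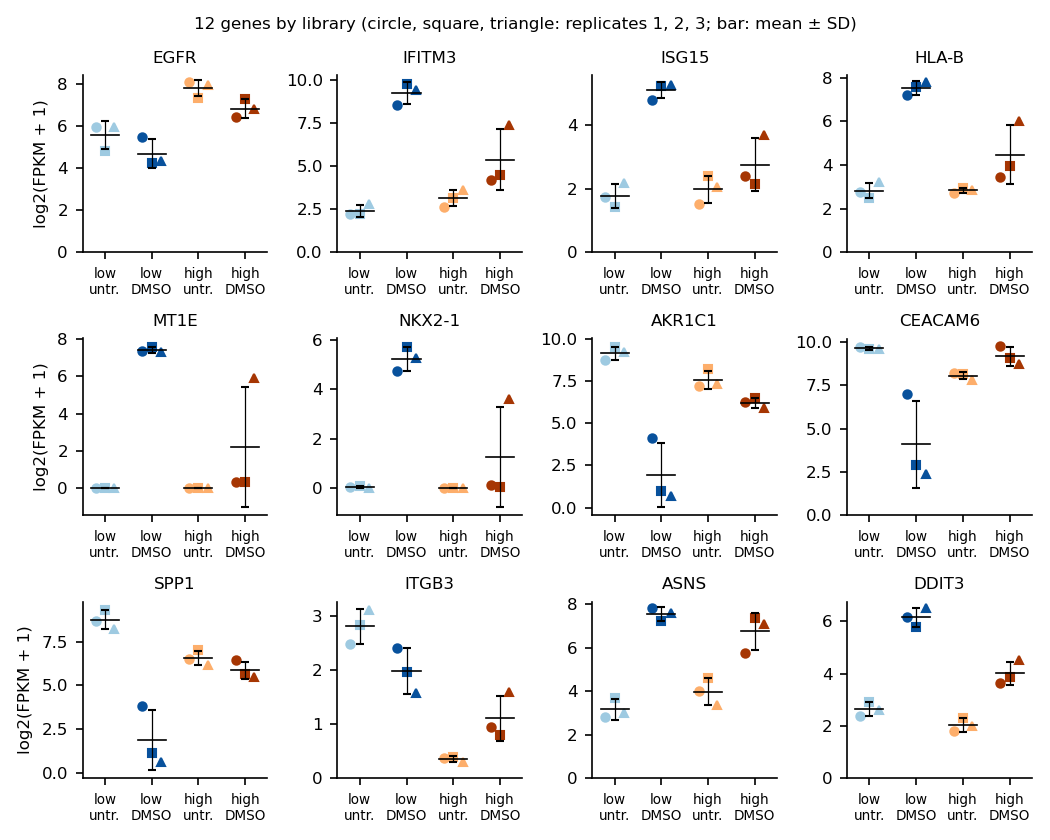
log2(FPKM + 1) of 12 genes (y axis) in each library of the 4 groups (x axis; symbols, replicates 1 to 3; bars, mean ± SD). For IFITM3, HLA-B, MT1E and NKX2-1 EGFR-high DMSO replicate 3 lies above its group, and for AKR1C1, CEACAM6 and SPP1 EGFR-low DMSO replicate 1 lies above its group.

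Promoters of interferon-stimulated genes hold a short repeated element, shown here for genes that differ widely between the groups. Each stretch is the 250 bases before the start of the gene, 5′ to 3′ on the gene's strand, from RefSeq on GRCh38.p14, which is not the build of the submitters' alignment. Capitals mark the element searched for, GAAA followed after any 2 bases by GAAA, or its reverse complement, and matches may overlap.
IFITM3 (chr11:320861-321110, minus strand): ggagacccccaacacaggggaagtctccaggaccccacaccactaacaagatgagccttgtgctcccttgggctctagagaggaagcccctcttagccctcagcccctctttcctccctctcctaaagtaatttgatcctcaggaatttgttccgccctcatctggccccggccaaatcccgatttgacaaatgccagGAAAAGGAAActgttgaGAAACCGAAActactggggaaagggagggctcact
IFIT1 (chr10:89392373-89392622, plus strand): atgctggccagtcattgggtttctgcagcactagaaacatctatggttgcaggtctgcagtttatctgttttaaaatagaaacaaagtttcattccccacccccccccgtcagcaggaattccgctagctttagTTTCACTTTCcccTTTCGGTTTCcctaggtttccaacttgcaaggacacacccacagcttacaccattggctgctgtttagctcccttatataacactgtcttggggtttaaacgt
IFI6 (chr1:27672193-27672442, minus strand): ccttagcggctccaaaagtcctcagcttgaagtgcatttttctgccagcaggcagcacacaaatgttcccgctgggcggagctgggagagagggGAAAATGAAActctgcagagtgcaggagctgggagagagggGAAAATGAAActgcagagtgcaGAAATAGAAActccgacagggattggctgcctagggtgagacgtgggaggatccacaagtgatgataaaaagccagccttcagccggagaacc
The element was found in 3.07% of all 27305 promoters of this length and in 2.25% of those of genes tested. It was found in 13 of the 21 interferon-stimulated genes tested whose promoter is in the table, among them IFITM1, IFIT3, ISG15, IFI27 and OAS3. A match describes letters and not binding.

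Interferon-stimulated genes formed the list with the largest share of calls upward. Of 28 tested members 25 were called higher and none lower, beside 14.7% and 9.1% of all genes. Without the 2 libraries 27 were called higher. The median EGFR-low difference was 2.39 and the median EGFR-high difference 0.45, beside 0.25 and 0.14 over all genes. Of the 28 members 15 were under 1 FPKM throughout 1 of the 2 EGFR-low groups and so had to differ to be tested. IFITM3, the most abundant of its family, was at 3.64, 3.6 and 5.91 FPKM untreated and at 370, 855 and 690 FPKM in EGFR-low DMSO cells, with a difference of differences of 4.61 (SE 0.92, limma adjusted p = 0.00394). ISG15, a ubiquitin-like modifier, was at 2.33, 1.67 and 3.5 FPKM against 27.1, 36.9 and 37.9 FPKM, and EGFR-high DMSO cells had 4.27, 3.47 and 12.1 FPKM. The groups of EGFR-low cells did not overlap for either gene.

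Several sensors and factors of the pathway showed the same order with smaller values, but STAT2 did not. OAS3, a sensor of double-stranded RNA, was at 0.364, 0.207 and 0.25 FPKM untreated and at 8.75, 12 and 11.4 FPKM in DMSO, and its EGFR-high difference was -0.02. IFIT1, which binds RNA lacking a host cap, was at 0.33, 0.646 and 0.26 FPKM against 8.91, 9.27 and 8.61 FPKM. IFIH1, the RNA sensor MDA5, had an EGFR-low difference of 2.23 and an EGFR-high difference of 0.23. IRF9 was at 1.57, 2.79 and 2.07 FPKM against 21.5, 25.4 and 29.3 FPKM, with a difference of differences of 1.83, and lost its call without EGFR-high DMSO replicate 2 (1.62, limma adjusted p = 0.0518). STAT2, SAMD9 and DDX58 were the 3 members not called (-0.11, 1.99 and 0.93). For BST2, tetherin, the EGFR-low DMSO values of 2.97, 2.37 and 2.77 FPKM lay within those of untreated EGFR-high cells (1.44, 2.97 and 3.57 FPKM), while untreated EGFR-low cells had at most 0.0938 FPKM.

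MHC class I and antigen processing genes went with them in part. Of 18 tested, 6 were called higher and none lower, with or without the 2 libraries, beside 14.7% and 9.1% of all genes with all 12. Of the 18 genes 2 had to differ to be tested. HLA-B, which presents peptides to T cells, was at 5.77, 4.66 and 8.2 FPKM untreated and at 146, 188 and 222 FPKM in EGFR-low DMSO cells, with a difference of differences of 3.07 (limma adjusted p = 0.00735). PSMB9, a subunit of the immunoproteasome, was at 0.0928, 0.587 and 0.411 FPKM against 17.6, 29.6 and 22.2 FPKM (3.61). HLA-C, HLA-F, TAP1 and PSMB10 had 1.24, 1.54, 1.28 and 1.67. HLA-C lost its call in 8, TAP1 in 7 and HLA-F in 2 of the 12 fits that left out 1 library, with limma adjusted p up to 0.0993, 0.0772 and 0.0508. Reads of the HLA genes can be shared between them, which makes each of their values less certain.

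Metallothioneins, small proteins that bind zinc and copper, were higher in EGFR-low DMSO cells in all 6 members tested, with a median difference of 2.91 (0.71 in EGFR-high cells). MT1E and MT2A were called higher, beside 14.7% of all genes, and all 6 were called without the 2 libraries. Of the 6 members 3 were under 1 FPKM throughout 1 EGFR-low group and so had to differ to be tested. MT2A lost its call in 4 and MT1E in 3 of the 12 fits without 1 library (limma adjusted p up to 0.0647 and 0.0644). MT2A was at 32.2, 11.5 and 42.1 FPKM untreated and at 270, 305 and 242 FPKM in DMSO. MT1X was at 13.3, 12.5 and 17 FPKM against 88.7, 147 and 124 FPKM, and EGFR-high DMSO replicate 3 held 67.4 FPKM beside 14.2 and 18.5 FPKM in the other 2. Copies of this family can share reads.

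Targets of NRF2 went the other way. Of 20 tested, 13 were called lower and none higher (14 and none without the 2 libraries), beside 9.1% and 14.7% of all genes. The median EGFR-low difference was -1.40 and the median EGFR-high difference 0.29. AKR1C1, an aldo-keto reductase, was at 420, 718 and 588 FPKM in untreated EGFR-low cells and at 16.3, 0.969 and 0.617 FPKM in DMSO, and EGFR-high cells had 147, 289 and 160 FPKM against 74.4, 89 and 58.9 FPKM. AKR1C1, AKR1C2 and AKR1C3 are close copies and their reads may be split between them. GCLM, a subunit of the enzyme that limits glutathione synthesis, was at 156, 142 and 149 FPKM against 16.7, 8.45 and 5.8 FPKM (difference of differences -3.24, limma adjusted p = 0.00107). TXNRD1, thioredoxin reductase, was at 778, 722 and 804 FPKM against 272, 211 and 159 FPKM (-1.65), and PGD, SLC7A11 and GCLC had -2.19, -2.10 and -1.64. HMOX1, which encodes an enzyme that breaks down haem and is named here for its values, was the only member over 1 log2 unit higher in DMSO without overlap, at 10.1, 6.56 and 27.5 FPKM untreated and 42.1, 127 and 60.2 FPKM in DMSO, and it was not called (1.30, limma adjusted p = 0.297).

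Genes of cell lineage differed in both directions. Of 11 lung lineage genes tested 5 were called higher and 3 lower, and 3 of the 11 had to differ to be tested. Among all genes 14.7% were called higher and 9.1% lower. NKX2-1, the master factor of lung epithelium, was at most 0.069 FPKM in untreated EGFR-low cells and at 25.6, 51.1 and 37.9 FPKM in DMSO, with 11.1 FPKM in EGFR-high DMSO replicate 3 and at most 0.0859 FPKM in the other 2. SOX2 was at 0.302, 1.19 and 0.332 FPKM against 50.2, 107 and 77.6 FPKM (difference of differences 4.21, limma adjusted p = 0.0139), and FOXA2 and SFTA3 had 3.51 and 3.20. FOXA1, a pioneer factor of many epithelia, was at 35.7, 27.8 and 29.7 FPKM untreated and at 5.23, 1.27 and 1.47 FPKM in DMSO (-3.14). Of 12 gastric-type and mucin genes 9 were called lower and none higher, but 6 of the 12 were under 1 FPKM throughout 1 EGFR-low group and so had to differ to be tested. TFF1, a trefoil peptide of gastric mucus, was at 24.8, 18.5 and 20.7 FPKM against 0.781, 0.241 and 0 FPKM (-5.08, limma adjusted p = 8.28e-05), and ANXA10 at 14, 18 and 12.8 FPKM against 0.0246, 0 and 0 FPKM.

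Of 13 proteins of epithelial defence tested 5 were called lower and 1 higher, and 3 of the 13 had to differ to be tested. These counts and those of cytokines are to be read beside the 9.1% and 14.7% of all genes. WFDC2, a secreted protease inhibitor, was at 69.9, 78.1 and 86.2 FPKM in untreated EGFR-low cells and at 21.3, 1.45 and 1.04 FPKM in DMSO (difference of differences -4.54), and C3 and PI3 had -3.19 and -4.20. CFI, the complement factor called higher, was at most 0.0332 FPKM against 9.28, 22.5 and 30 FPKM (3.50). Of 14 cytokine genes tested 3 were called higher and 4 lower, among them CCL28 (1.89), IL1A (-1.53) and CXCL16 (-1.89). Of the 14 cytokine genes 4 had to differ to be tested.

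The genes on which the study centred, those of integrin αvβ3 and TGFβ, did not share a direction. ITGB3, the β3 integrin chain, was at 4.6, 6.15 and 7.71 FPKM in untreated EGFR-low cells and at 4.34, 2.91 and 1.98 FPKM in DMSO, and in EGFR-high cells at 0.228 to 0.318 FPKM untreated and 0.748 to 2.01 FPKM in DMSO. Its difference of differences was -1.59 (SE 0.36, limma adjusted p = 0.00735). ITGAV, its αv partner, was at 18.5, 23 and 23.7 FPKM against 22.1, 24.1 and 26.7 FPKM, groups that overlapped (0.56, limma adjusted p = 0.106). TGFB2 was at 16.4, 17.5 and 17.5 FPKM against 9.52, 8.63 and 9.9 FPKM (-1.31, limma adjusted p = 0.0077) and TGFB1 at 12, 6.44 and 13.1 FPKM against 6.15, 2.74 and 5.72 FPKM (-1.46, limma adjusted p = 0.0306). Their EGFR-high differences were 0.50 and 0.48, from groups that overlapped. In DMSO the mean of TGFB2 was 9.35 FPKM in EGFR-low and 16.5 FPKM in EGFR-high cells. TGFB3 was the only one of the 3 ligands called higher (0.73), from at most 0.494 FPKM to 1.35, 1.91 and 1.93 FPKM. TGFB1 lost its call in 7 and TGFB3 in 8 of the 12 fits that left out 1 library, with limma adjusted p up to 0.0815 and 0.0955. TGFB1 also lost it with no filter on low values (0.0557), and TGFB3 with a pseudocount of 0.1 (0.158), median-of-ratios scaling (0.0536) and quantile normalization (0.108). FN1, fibronectin, was at 78.3, 22.2 and 76.8 FPKM against 18.3, 24.7 and 25.8 FPKM and was not called (-0.74, limma adjusted p = 0.501), and LTBP1, which tethers latent TGFβ to the matrix, missed the threshold (-1.23, limma adjusted p = 0.0531).

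Around these genes, 6 of 13 integrin chains were called lower and none higher. The counts of this paragraph are to be read beside the 9.1% of all genes called lower and 14.7% called higher. Of the 13 integrin, 26 matrix and 13 protease genes, 2, 3 and 2 had to differ to be tested. ITGA2 was at 77.6, 39.1 and 82.5 FPKM in untreated EGFR-low cells and at 16.7, 8.06 and 6.99 FPKM in DMSO (-2.02), and ITGA6 and ITGB4, which pair to anchor cells to laminin, had -1.85 and -2.37, each losing its call in 8 of the 12 fits without 1 library (limma adjusted p up to 0.0993 and 0.0982). For ITGB4 the EGFR-low groups overlapped, and its EGFR-low and EGFR-high differences were -1.35 and 1.02. Of 26 matrix genes 6 were called lower and 4 higher. LAMB1, a laminin chain, was at 59.8, 26.6 and 64.1 FPKM against 9.65, 1.23 and 0.914 FPKM (-3.59), while EFEMP1, a fibulin, was at 0.934, 1.08 and 0.49 FPKM against 28.8, 32.5 and 33.5 FPKM (3.91). Among proteases and their inhibitors 6 of 13 were called lower and 3 higher. PLAU, the urokinase plasminogen activator, was at 20.8, 25.1 and 33.1 FPKM against 237, 215 and 249 FPKM (1.23), and lost its call in 3 of those fits (limma adjusted p up to 0.06). PLAU was also higher in EGFR-high DMSO cells, by 1.89.

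Receptors and other members of the TGFβ list were called in both directions, 6 of 27 higher and 5 lower, as were all genes (14.7% and 9.1%). ENG, the coreceptor endoglin, was at 0.687, 0.305 and 1.16 FPKM in untreated EGFR-low cells and at 13.9, 22 and 18.4 FPKM in DMSO (3.12, limma adjusted p = 0.000617). SKIL, an inhibitor of SMAD signalling that TGFβ itself induces, was at 43.9, 50.2 and 51 FPKM against 16, 13.1 and 13.2 FPKM (-1.82, limma adjusted p = 0.000517), and BMP4 and INHBA had -3.12 and -2.01. INHBA lost its call in 9 of the 12 fits without 1 library (limma adjusted p up to 0.104). Of 20 targets of YAP and TEAD 4 were called higher and 5 lower, F3 among the latter (-2.52). This count and that of the contractile genes are to be read beside the same shares of all genes. Of 14 contractile genes 3 were called lower and none higher: ACTG2, TAGLN and TPM4. Of the 14 genes 4 had to differ to be tested. So did 3 of the 20 YAP and TEAD targets and 2 of the 27 members of the TGFβ list. ACTA2, smooth muscle actin, was at 0.326, 0.267 and 0.433 FPKM untreated and at 1.75, 3.41 and 2.69 FPKM in DMSO and was not called (0.78, limma adjusted p = 0.162), but was without the 2 libraries (1.31, 0.00115).

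Among epithelial genes, CDH1, E-cadherin, was at 85.8, 56.8 and 86.3 FPKM in untreated EGFR-low cells and at 116, 128 and 138 FPKM in DMSO and was not called (0.63, limma adjusted p = 0.187). Of 20 epithelial genes 4 were called higher, CLDN3 among them (2.75), and 3 lower, CLDN1 (-4.38), RAB25 (-2.50) and OVOL1 (-1.06), shares to be read beside the 14.7% and 9.1% of all genes. OVOL1 lost its call in 3 of the 12 fits without 1 library (limma adjusted p up to 0.0574). Of 7 mesenchymal genes tested SNAI1 was called higher (1.80) and SNAI2 and WNT5A lower (-1.65 and -1.97), and 2 of the 7 had to differ to be tested. Among keratins 3 of 14 were called lower and 1 higher, and 2 of the 14 had to differ to be tested. Mesenchymal genes and keratins are to be read beside the same shares of all genes. KRT17, of basal epithelia, was at 42.2, 11.2 and 34 FPKM against 0.113, 0.384 and 0.045 FPKM (-4.85, limma adjusted p = 0.000226).

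KRT17 belongs to a list of 12 genes that are higher in untreated EGFR-low than in EGFR-high cells. That list was chosen on these samples. The untreated difference it was chosen by is subtracted in the difference of differences, so the direction of the list is not independent evidence. Of the 12, 10 were called lower and none higher, beside 9.1% and 14.7% of all genes. The median EGFR-low difference was -3.63, and 7 of the 12 had to differ to be tested. ACTG2 was at 28.9, 16.6 and 39.5 FPKM in untreated EGFR-low cells and did not exceed 0.0598 FPKM in DMSO, and SLC6A14, an amino acid transporter, at 13.4, 13 and 4.24 FPKM against at most 0.0494 FPKM. In both genes EGFR-low DMSO replicate 1 lay within the range of the EGFR-high libraries. Of 5 tested genes that are lower in untreated EGFR-low cells, CBS, an enzyme of cysteine synthesis, and ENG were called higher and none lower. This count is to be read beside the same shares of all genes and with the same limit. Of the 5 genes 1 had to differ to be tested. CBS was at 0.26 to 0.378 FPKM untreated and at 37.5, 35.8 and 44.2 FPKM in DMSO, above EGFR-high cells in either experiment (10.9 to 29.5 FPKM). OLFML3, a secreted glycoprotein named here for its values, was at 1.41, 0.705 and 1.66 FPKM untreated, at 13.4 FPKM in EGFR-low DMSO replicate 1 and at 0.0131 and 0.0125 FPKM in replicates 2 and 3.

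Ligands of EGFR and genes downstream of ERK were split. AREG, amphiregulin, was at 1.15, 1.53 and 1 FPKM in untreated EGFR-low cells and at 20.6, 14 and 14.9 FPKM in DMSO (1.92, limma adjusted p = 0.0055). HBEGF was at 10.6, 8 and 8.38 FPKM against 5.37, 1.37 and 1.61 FPKM (-2.08, limma adjusted p = 0.0118). Of 19 genes induced by ERK 5 were called lower and 2 higher, beside 9.1% and 14.7% of all genes. Without the 2 libraries 7 were called lower and 2 higher. DUSP6, a phosphatase that switches ERK off, was at 39.6, 27.1 and 26.6 FPKM against 9.53, 2.25 and 3.76 FPKM (-2.49, limma adjusted p = 0.00362), and its EGFR-high difference was -0.04. DUSP4, SPRY1, IER3 and EPHA4 were the others called lower (-2.20, -1.45, -1.42 and -1.59). SPRY1 and IER3 each lost the call in 8 of the 12 fits without 1 library (limma adjusted p up to 0.0911 and 0.131). EGR1, an immediate early factor, was at 0.117 to 0.443 FPKM against 18, 34 and 47.8 FPKM (3.19), and SPRED2, an inhibitor of the pathway, was the other gene called higher (1.48).

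Of 28 target genes of ATF4 tested, 18 were over 1 log2 unit higher in DMSO without overlap in EGFR-low cells, beside 22.3% of all genes. In EGFR-high cells 14 were, beside 4.55% of all genes, and 12 were in both, beside 369 of the 11883 genes. In EGFR-low cells 1 of the 28 was over 1 log2 unit lower without overlap. The median difference was 1.84 in EGFR-low and 1.01 in EGFR-high cells (1.77 and 1.03 without the 2 libraries). ASNS, asparagine synthetase, was at 6, 12.1 and 6.92 FPKM in untreated EGFR-low cells and at 229, 147 and 194 FPKM in DMSO, and in EGFR-high cells at 15.1, 23.4 and 9.2 FPKM against 54.1, 165 and 136 FPKM. Its difference of differences was 1.62 (SE 0.59, limma adjusted p = 0.0631), or 1.65 (0.113) without the 2 libraries. NUPR1, a stress-induced cofactor, was at 0.144, 0.49 and 0.293 FPKM against 16.5, 15 and 19.9 FPKM in EGFR-low cells and at 0.419 to 0.539 FPKM against 6.92, 23.2 and 10.7 FPKM in EGFR-high cells. Here EGFR-high DMSO replicate 3 lay within the range of its group.

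The promoters of ASNS and CHAC1 hold the C/EBP-ATF response element through which ATF4 acts, TGATGNAA on either strand, here in capitals in the 250 bases before the start (RefSeq, GRCh38.p14).
ASNS (chr7:97872409-97872658, minus strand): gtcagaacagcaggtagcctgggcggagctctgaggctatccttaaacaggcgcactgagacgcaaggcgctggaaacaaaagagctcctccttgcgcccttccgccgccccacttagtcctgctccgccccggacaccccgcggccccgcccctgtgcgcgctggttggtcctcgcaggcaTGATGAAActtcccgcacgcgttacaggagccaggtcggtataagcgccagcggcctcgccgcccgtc
CHAC1 (chr15:40953221-40953470, plus strand): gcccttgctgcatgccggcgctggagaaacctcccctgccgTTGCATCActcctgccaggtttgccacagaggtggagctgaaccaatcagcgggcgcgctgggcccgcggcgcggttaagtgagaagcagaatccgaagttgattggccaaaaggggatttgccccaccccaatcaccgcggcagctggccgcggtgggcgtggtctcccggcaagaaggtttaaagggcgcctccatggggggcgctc
The element occurs in 3.19% of all promoters of this length and in 1.27% of those of genes tested. It was found in 3 of the 18 ATF4 genes tested whose promoter is in the table, ATF3 being the third. The stretches of DDIT3 and TRIB3 held no match.

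Within this list 5 of 28 genes were called higher and 4 lower, with or without the 2 libraries, beside 14.7% and 9.1% of all genes with all 12. Of the 28 genes 3 had to differ to be tested. DDIT3, the stress factor CHOP, was at 4.25, 6.6 and 5.02 FPKM in untreated EGFR-low cells and at 70.1, 53.6 and 90 FPKM in DMSO, against 2.49 to 3.94 and 11.5 to 21.6 FPKM in EGFR-high cells (1.54, limma adjusted p = 0.0102). CHAC1, which breaks down glutathione, ULBP1 and the tRNA synthetases CARS and WARS were the others called higher (1.13, 1.53, 1.43 and 2.58). SLC7A11, the cystine importer that NRF2 also drives, was at 67, 64.2 and 68 FPKM against 34.9, 20.9 and 21.7 FPKM and was called lower (-2.10), as were DDIT4, STC2 and VLDLR (-1.44, -1.43 and -0.93). DDIT4 lost its call in 6, STC2 in 5 and VLDLR in 6 of the 12 fits without 1 library (limma adjusted p up to 0.0925, 0.0691 and 0.0955).

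**Figure D4:**
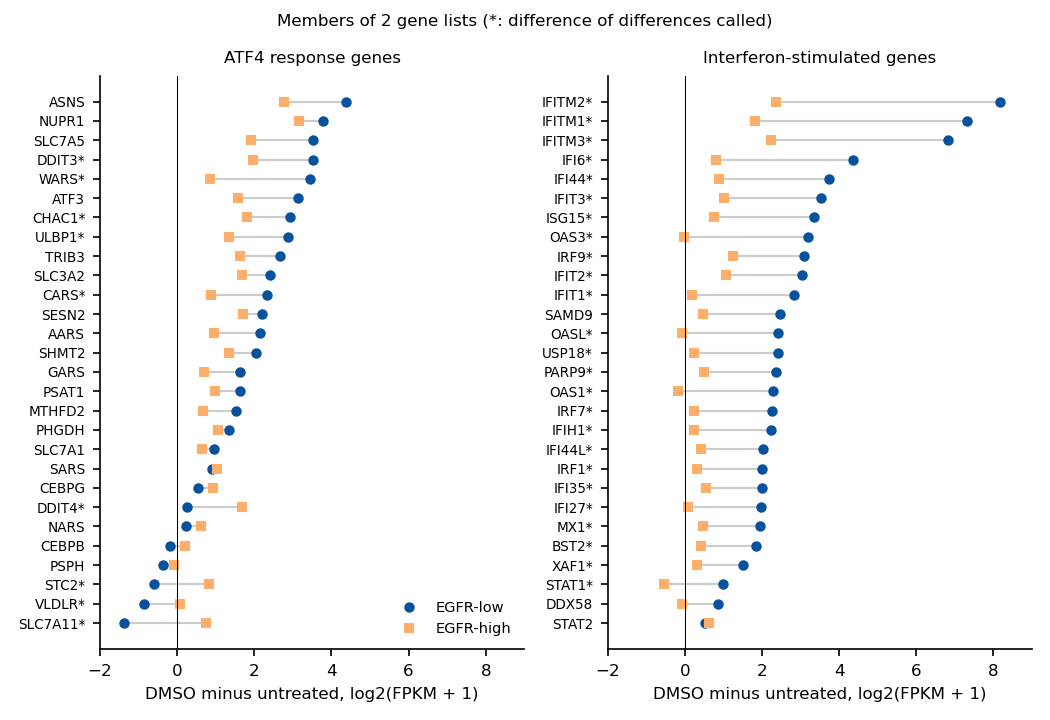
EGFR-low (circles) and EGFR-high (squares) differences, DMSO minus untreated in log2(FPKM + 1) on the x axis, for the tested members of 2 lists. ATF4 targets have medians of 1.84 and 1.01 and interferon-stimulated genes of 2.39 and 0.45, and a star marks a called difference of differences.

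Other genes differed alike in both populations and were picked by the smaller of the 2 differences. TRAPPC6A, of a vesicle tethering complex, was 2.59 log2 units higher in DMSO in EGFR-low and 2.70 in EGFR-high cells, and TMC4, an ion channel, 2.27 and 2.35. IFITM2, IFITM3 and MT1E also met this rule, with EGFR-high DMSO replicate 3 far above the other 2 of its group. On the low side stood KRT5, a basal keratin (-2.84 and -2.44), CDKN3, a phosphatase of the cell cycle (-2.13 and -1.86), CPA4, a carboxypeptidase (-3.66 and -1.82) and FAM25A (-2.62 and -1.99). CDKN3 was at 107, 167 and 86.1 FPKM in untreated EGFR-low cells and at 35, 23.4 and 20.4 FPKM in DMSO, and at 103 to 157 FPKM against 28.8 to 41.3 FPKM in EGFR-high cells. CPA4 was also called lower (-1.84), its EGFR-low difference being the larger. The rest were RP11-977G19.10 on the high side and RP4-539M6.19, RP11-343C2.9, TGIF2-C20orf24 and RPL17-C18orf32 on the low side, of which the last 2 are read-through transcripts whose reads cannot be told from those of the genes they join.

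Genes of mitosis had lower medians in DMSO in both populations. The median difference was -0.88 in EGFR-low and -0.80 in EGFR-high cells, 8 and 9 of 28 were over 1 log2 unit lower without overlap (9.89 and 1.5% of all genes), 4 of them in both, and only CCNA2 was called. CCNA2, cyclin A2, was at 90.3, 80.5 and 85.8 FPKM in untreated EGFR-low cells and at 22.5, 10.9 and 9.4 FPKM in DMSO, and at 73.5 to 90.9 FPKM against 32.6 to 39 FPKM in EGFR-high cells (-1.40, limma adjusted p = 0.0147). HMMR was 1.48 log2 units lower (-1.48) in EGFR-low and 1.30 lower (-1.30) in EGFR-high cells. Of 29 DNA replication genes CDC45 and GINS2 were called higher and none lower, beside 14.7% and 9.1% of all genes, with medians of -0.33 and -0.55. CDC45 lost its call in 3 and GINS2 in 7 of the 12 fits without 1 library (limma adjusted p up to 0.0593 and 0.098).

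Lipid, stress and survival genes gave few calls. Their counts, here and in the next paragraph, are to be read beside the 14.7% of all genes called higher and 9.1% called lower. Of 24 cholesterol synthesis genes PMVK and STARD4 were called higher and none lower, and of 11 fatty acid synthesis genes none was called. HMGCS1, an early enzyme of the former pathway, was at 477 FPKM in EGFR-high DMSO replicate 1 beside 76.5 and 70.2 FPKM in the other 2, and was not called (-0.72). Of 24 hypoxia genes BNIP3 was called higher (1.90) and EGLN3 lower (-1.17). Of 16 p53 targets BTG2 and FAS were called higher (1.11 and 1.20) and PLK2 and SESN1 lower (-2.65 and -0.85). CDKN1A, the cell cycle inhibitor p21, was at 2.63, 2.46 and 5.55 FPKM untreated and at 18.6, 17.5 and 20.1 FPKM in EGFR-low DMSO cells and missed the threshold (1.25, limma adjusted p = 0.0657). HSPB1 and SDF2L1 were called higher among 20 chaperones (2.61 and 1.51). Of these genes FAS and SESN1 lost the call in 8 each, EGLN3 in 5, BNIP3 in 3, PMVK in 2 and SDF2L1 in 1 of the 12 fits without 1 library (limma adjusted p up to 0.104, 0.0978, 0.072, 0.062, 0.0564 and 0.0521).

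In the BCL2 family, BMF, which triggers apoptosis, was called higher and BCL2, which prevents it, lower (-1.27), of 14 tested, the latter losing its call in 8 of the 12 fits without 1 library (limma adjusted p up to 0.1). BCL2L11, the BH3 protein BIM, was at 7.28, 6.51 and 8.58 FPKM in untreated EGFR-low cells and at 8.81, 11.8 and 11.6 FPKM in DMSO (0.78, limma adjusted p = 0.0617, and called without the 2 libraries, 1.03 and 0.0331). BBC3, the p53 target PUMA, was higher in DMSO by 1.93 in EGFR-low and 1.83 in EGFR-high cells. Of the histone deacetylases, the targets of vorinostat, HDAC2 was at 168, 136 and 158 FPKM against 73.8, 61.3 and 55.6 FPKM (-1.11, limma adjusted p = 0.014) and HDAC9 was called higher (1.52). HDAC1 and HDAC3 were not called (-0.26 and 0.08), and HDAC5 was higher in DMSO by 2.80 in EGFR-low and 1.89 in EGFR-high cells. None of 13 mitochondrially encoded mRNAs was called, and MT-ATP6, MT-ATP8 and MT-CO3 were listed at 0 in EGFR-low DMSO replicate 1 and at 2242 FPKM or more in each of the other 11.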

How the data were processed

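Sequencing was of polyadenylated RNA, and 2 tables, 1 for each experiment, hold a value per gene and library. The deposited values were taken as FPKM, although they are named as counts. The unit was read from the values and the tool that made them, as submitters' processing notes name STAR 2.5.1b, Cufflinks 2.2.1 and hg19, among others, with no role for each. Depth is not in the tables, so no counting error could be given.

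The 12 libraries of EGFR-low and EGFR-high cells, untreated or in DMSO, were grouped by their labels. Values were taken as log2(FPKM + 1), and genes at 1 FPKM or more in 3 of the 6 EGFR-low libraries were kept, 11883 of 20111. Fold differences on this scale understate those of low genes. The difference of differences was fitted in limma 3.58.1 (R 4.3.3) with a mean-variance trend and 1 mean per group, with Benjamini-Hochberg adjustment over the 11883 genes. The fit was tried on simulated data whose noise was independent between genes and libraries. Of genes changed by 1 and 2 log2 units it found 16% and 73%, with 4 false calls. The libraries here deviated over many genes together, so this does not give the number of false calls among these results. Differences between tables were described without a test.

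Genes are named that the study measured, the 10 largest differences of differences each way without overlap in EGFR-low cells, the 8 each way with the largest smaller difference in both populations, and, for each list, the called members and the 4 with the largest EGFR-low difference. Some genes that this rule takes in are not reported here. Members and lists were chosen with earlier results of these data known. Promoters are RefSeq, GRCh38.p14. Pseudocounts, filters, scalings, a replicate block, a GC and length correction (11276 genes with values) and leaving out each library were tried. Vorinostat and parental libraries were used only for the 2 gene sets and 1 alternative fit.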

Additional observations from a re-analysis of the deposited data

Results flagged for a closer look

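By the limma test of the difference of differences, the EGFR-low difference was called above the EGFR-high difference for 1746 genes and below it for 1081. What these calls come from was not tested. Among the integrin, TGFβ and deacetylase genes, the difference of differences was -1.59 for ITGB3, -1.46 for TGFB1, -1.31 for TGFB2, 0.73 for TGFB3 and -1.11 for HDAC2. At the high end stood IFITM2 (5.79), IFITM1 (5.51), XAGE1C (5.36), XAGE1B (5.33), XAGE1D (5.31), XAGE1E (5.27), XAGE1A (5.27), MT1E (5.22), CT45A4 (5.02) and EEF1A2 (5.01). At the low end stood ALDH3A1 (-7.06), CEACAM6 (-6.67), UCHL1 (-6.21), SPP1 (-6.19), VCX3B (-6.12), VCX3A (-6.11), AKR1C3 (-6.07), AKR1B10 (-6.07), AKR1C1 (-5.84) and UGT1A6 (-5.65). With 3 libraries in each group, single libraries were not screened for outlying values.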

How the results depend on the processing

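Depth is unknown, and 3 libraries a group limit the calls, so a gene not called is not shown to be alike in both populations. A filter at 5 FPKM left 1058 genes with a difference of differences called higher and 677 lower, fewer genes being tested. Same-numbered EGFR-low and EGFR-high libraries did not all deviate together (r = 0.35, 0.739 and 0.704 untreated and 0.25, -0.205 and 0.282 in DMSO), all 3 untreated but not all DMSO pairs being over 0.1, so the number was not taken to pair them. With a replicate block 2819 genes were called higher and 1746 lower, ITGAV, LTBP1, CDH1, BCL2L11, ASNS, CDKN1A and KRT8 among those gained, and 3055 and 1923 with GC content and length removed as well. Leaving out 1 library gave 1194 to 1930 genes called higher and 688 to 1418 lower, with 710 lower without EGFR-low DMSO replicate 2 and 688 without replicate 3. A pseudocount of 5 left 1310 genes over 1 log2 unit higher in DMSO without overlap and 628 lower in EGFR-low cells (1938 in all, from 3819), and leaving out 1 library gave 3695 to 4215 in all. In EGFR-high cells the 719 genes became 1307 at a pseudocount of 0.1, 238 at 5 and 452 with GC content and length removed, and 509 to 1173 without 1 library, the most without untreated replicate 3.

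EGFR, which was not called, changed sign with median-of-ratios scaling (-0.0047), quantile normalization (-0.12) and without both EGFR-low DMSO replicate 1 and EGFR-high DMSO replicate 3 (-0.32), and ranged from -0.30 to 0.32 without 1 library. Other genes not called changed sign too. HDAC3 was at -0.02 and -0.01 under the 2 scalings, and a pseudocount of 5 gave 0.02 for TRAPPC6A, 0.67 for KRT5 and 0.34 for FAM25A. Without those 2 libraries TMC4 was at 0.07. Leaving out 1 library spanned -0.05 to 0.26 for HDAC3, -0.58 to 0.51 for TRAPPC6A, -0.27 to 0.16 for TMC4, -1.09 to 0.15 for TGIF2-C20orf24, -0.38 to 0.26 for RP11-343C2.9 and -1.31 to 0.17 for HMGCS1, which was at -1.79 without those 2. The cause of these changes was not tested. Of 147 named genes compared, 119 were called, none of these changed direction under the 25 alternatives, and 85 were called under every one.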

Other observations

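EGFR-high cells treated with vorinostat also held a library apart from its group in the 61 genes at 10 FPKM or more in EGFR-low DMSO cells and under 1 FPKM untreated. In replicate 1 the median gene stood at 2.29% of its EGFR-low DMSO level and 26 of the 61 were at 1 FPKM or more, beside medians of 0.2% and 0.147% in replicates 2 and 3. In the parental libraries none of the 61 genes exceeded 0.836 FPKM. The 62 genes of the other set stood at 81.4 to 90.7% of their EGFR-high DMSO level in parental cells.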
